A study of Mus musculus with 17 samples.

Results

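Rb1, Rbl1 and Rbl2, which encode the Rb pocket proteins, and E2f1, E2f2, E2f3, E2f4, E2f5, E2f7 and E2f8, which encode E2F transcription factors, were followed in 12 mammary tumours and 5 normal mammary samples of the mouse. The genes were chosen by name, and all 10 were measured among 19938 genes on 17 expression arrays of total RNA, 1 array per sample. Levels are log2 values made by RMA, a background correction, normalisation and summary of probes, and a log2 fold is the difference between the means of 2 groups on that scale. The pocket protein Rb binds activating E2F factors and holds their target genes down until cyclin-dependent kinases phosphorylate it as a cell enters S phase. Its relatives p107, encoded by Rbl1, and p130, encoded by Rbl2, work mainly with E2F4 and E2F5, which repress cell cycle genes in resting cells. E2F7 and E2F8 are atypical members that bind DNA without a DP partner and without a pocket protein, and repress E2F targets later in the cycle. Loss of the RB1 gene is frequent in human breast cancers of the triple-negative class, in which E2F target genes are commonly high.

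All samples came from mice of mixed strain background. The 9 Rb/p53 tumours are labelled as deleted for Rb and p53, the product of Trp53, by Cre recombinase. In 7 of them Cre had the promoter of the mouse mammary tumour virus (MMTV-Cre), active in mammary epithelium and in some other tissues, and in 2 it was delivered by adenovirus under a cytomegalovirus promoter (Ad-Cre). The mouse bearing MMTV-Cre tumour 1 was nulliparous and that bearing tumour 2 parous. Labels call replicates 3 to 7 and both Ad-Cre tumours transplants without naming a host, although the titles of most of these also read primary tumour. The 3 p53 tumours carried MMTV-Cre and are labelled as deleted for p53 alone, and none is labelled as a transplant. Replicate 3, however, has a title that names Rb/p53, against its other labels, by which it was grouped here. Its sample name there starts like those of MMTV-Cre tumours 1 and 2 and of normal samples, unlike those of the other p53 tumours. Normal tissue (5 samples) was taken from Rb/p53 mice, and neither their Cre status nor any age is stated in the labels. Tumours are described as independent. No label states this for the normal samples, although each of their titles carries a number of its own. Their p-values therefore measure the spread between samples, which may be technical if samples share a mouse.

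The arrays had medians between 7.74 and 7.85 on the log2 scale. The array of p53 replicate 2 stood apart, with an interquartile range of 2.39 against 2.91 to 3.18 on the other 16 arrays. Results that changed most without it are given both ways. The mean level of luminal epithelial markers was between 11.09 and 11.29 in normal tissue, between 8.30 and 10.07 in Rb/p53 tumours and between 8.18 and 9.43 in p53 tumours, and adipocyte markers were between 12.02 and 12.69 in normal tissue against 7.30 to 8.47 and 7.32 to 8.10. In such whole-tissue RNA, fewer cells of a type and less RNA per cell cannot be told apart.

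E2F genes are themselves known targets of E2F factors, so the promoters of the members were searched for E2F motifs, and the windows with a match are shown here with the matched letters in capitals. RefSeq promoter windows (build GRCm38.p6, 300 bases from 250 before the annotated start) were at hand for 7 of the 10 members, 9 windows in all, and those of Rb1, E2f4 and E2f5 were not used here. The E2F motifs were TTTGGCGC, TTTCGCGC, TTTCCCGC and TTTGCCGC on both strands. An E2F motif was held by 4 of the 9 windows, each of a different member, and by 744 of all 32851 windows of this length (2.26%). The windows of Rbl2, E2f1 and E2f8 and the other windows of E2f2 and E2f3 held none. Whether each window is the main promoter of its gene was not tested. The match in Rbl1 (chr2:157204485-157204784, minus strand) began 18 bases before the start, and that in E2f2 (chr4:136172024-136172323, plus strand) lay 39 bases after it. In E2f3 (chr13:29986014-29986313, minus strand) and E2f7 (chr10:110745189-110745488, plus strand) the motif TTTCCCGC lay on the other strand and reads GCGGGAAA, 11 and 198 bases before the start. The windows are written 5′ to 3′ along the gene.
Rbl1: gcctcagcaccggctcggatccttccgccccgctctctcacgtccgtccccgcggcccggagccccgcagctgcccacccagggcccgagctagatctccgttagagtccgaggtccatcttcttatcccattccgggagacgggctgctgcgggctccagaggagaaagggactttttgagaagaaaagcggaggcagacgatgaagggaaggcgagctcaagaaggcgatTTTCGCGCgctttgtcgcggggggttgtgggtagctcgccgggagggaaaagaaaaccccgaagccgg
E2f2: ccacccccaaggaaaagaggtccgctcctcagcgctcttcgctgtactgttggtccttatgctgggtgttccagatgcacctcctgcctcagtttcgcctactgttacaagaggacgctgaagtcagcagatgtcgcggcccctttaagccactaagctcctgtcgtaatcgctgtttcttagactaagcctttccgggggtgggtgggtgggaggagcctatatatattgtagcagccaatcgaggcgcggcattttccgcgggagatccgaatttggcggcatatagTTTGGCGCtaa
E2f3: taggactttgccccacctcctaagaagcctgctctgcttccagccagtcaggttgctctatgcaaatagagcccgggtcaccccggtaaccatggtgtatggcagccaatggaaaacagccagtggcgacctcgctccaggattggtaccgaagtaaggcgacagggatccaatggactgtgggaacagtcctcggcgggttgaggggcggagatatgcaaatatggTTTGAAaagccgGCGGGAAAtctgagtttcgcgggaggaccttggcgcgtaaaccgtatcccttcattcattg
E2f7: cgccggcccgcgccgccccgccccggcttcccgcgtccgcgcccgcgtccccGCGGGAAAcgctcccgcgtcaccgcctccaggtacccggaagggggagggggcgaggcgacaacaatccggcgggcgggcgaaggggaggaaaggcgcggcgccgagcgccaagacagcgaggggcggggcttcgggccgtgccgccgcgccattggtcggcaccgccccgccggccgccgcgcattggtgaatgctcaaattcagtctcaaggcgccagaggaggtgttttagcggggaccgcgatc
The further capitals in the E2f3 window are TTTGAA, a cell cycle homology region (CHR) motif read by complexes of p130, E2F4 and MuvB proteins, which was searched on both strands together with TTCGAA. A CHR motif was found in windows of Rbl2, E2f2, E2f3 and E2f8, and in 19.2% of all windows. That of E2f2 lay in its other window (chr4:136180532-136180831), which held no E2F motif and is not printed here. A match describes the letters and is not a measured binding site.

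The mean level of Rb1, the deleted pocket protein gene, was lowest in Rb/p53 tumours, intermediate in p53 tumours and highest in normal tissue. Its log2 level in Rb/p53 tumours ran from 9.29 to 9.92 with a median of 9.43 (9.54 ± 0.23, SD, n = 9). The 3 p53 tumours stood at 9.93, 11.00 and 10.27, and the normal samples at 11.50, 11.19, 10.93, 11.48 and 10.97. Every Rb/p53 tumour was below every normal sample, and its highest value lay just under the lowest p53 tumour. Against normal tissue Rb1 fell with a log2 fold of -1.67 ± 0.16 (SE) in Rb/p53 tumours (limma, adjusted p = 7.74e-07), and it was past the threshold under each of 30 alternative settings, with folds from -1.84 to -1.60. The labels do not say which exons were deleted, and the array reads the whole transcript, so exons that remain are read as well, and their share of the level left in Rb/p53 tumours was not tested.

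In p53 tumours, too, Rb1 fell against normal tissue, by 0.81 on the log2 scale with a 95% interval from -1.26 to -0.36 (limma, adjusted p = 0.0124), although p53 replicate 2 at 11.00 lay within the normal range. Without p53 replicate 1, the lowest of the 3, this fold was -0.58 and no longer passed (adjusted p = 0.0751), and without p53 replicate 2 it was -1.11. Rb/p53 tumours stood below p53 tumours in Rb1 by a log2 fold of -0.86 ± 0.20 (95% interval -1.30 to -0.43), a difference that did not pass after adjustment over all genes (limma, adjusted p = 0.112). Without p53 replicate 3, the sample with the conflicting title, the fold was -0.93 and passed (adjusted p = 0.0469), whereas without p53 replicate 2 it was -0.56 (adjusted p = 0.407). The value of p53 replicate 3, 10.27, lay above all 9 Rb/p53 tumours.

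**Figure D1:**
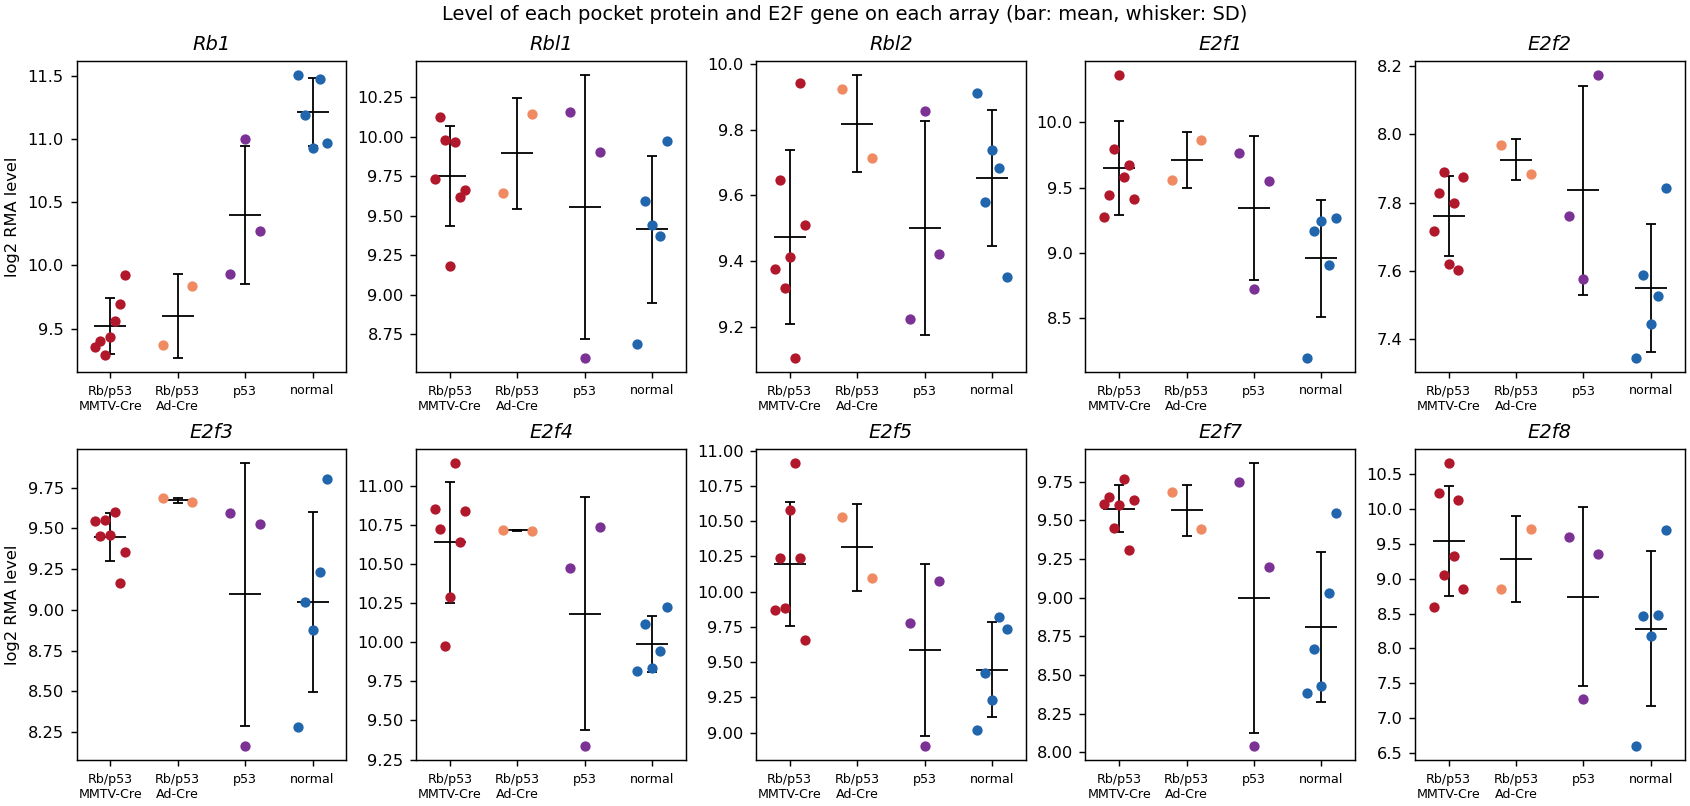
Log2 RMA level of each of the 10 genes (vertical axes, own range per gene) on each of 17 arrays, by group, with points for arrays, a bar for the mean and a whisker for the SD. Rb1 in Rb/p53 tumours lies between 9.29 and 9.92, below all normal samples, while E2f8 spreads from 8.59 to 10.65 within the same tumours.

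The other pocket protein genes did not pass the test in any comparison. Rbl1 ran from 9.18 to 10.14 with a median of 9.73 in Rb/p53 tumours, and stood at 10.16, 8.60 and 9.90 in p53 tumours. In normal tissue its levels were 8.68, 9.59, 9.44, 9.37 and 9.97. The groups overlapped, and the log2 fold of Rb/p53 tumours against normal tissue was 0.37 with a 95% interval from -0.14 to 0.88 (limma, adjusted p = 0.298). Rbl2 ran from 9.10 to 9.94 with a median of 9.51 in Rb/p53 tumours, from 9.22 to 9.86 in p53 tumours and from 9.35 to 9.91 in normal tissue. Its fold against normal tissue was -0.10 (95% interval -0.41 to 0.20) in Rb/p53 tumours. The folds of p53 tumours against normal tissue were 0.14 ± 0.32 (SE) for Rbl1 and -0.15 ± 0.19 for Rbl2.

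Rises of E2F genes were measured in Rb/p53 tumours against normal tissue in 3 functional classes, namely the activator E2f1, the repressors E2f4 and E2f5, and the atypical E2f7. With Rb1, 5 of the 10 members passed (limma, adjusted p below 0.05), against a background of 27.6% of all genes, and 7 had an unadjusted p below 0.05, as did 37.2% of all genes. Of the 5, 4 rose, where 14.2% of all genes did, and 1 fell, where 13.4% did. The median log2 fold of the 10 members was 0.56 and that of all genes 0.03. E2f1 and Rb1 were the 2 members whose groups did not overlap, which 16.2% of all genes showed.

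E2f1, the activator best known for driving S-phase genes, ran from 9.28 to 10.36 with a median of 9.58 in Rb/p53 tumours. Normal samples stood at 8.20, 9.17, 9.25, 8.91 and 9.27, all below the lowest Rb/p53 tumour, the margin to normal replicate 5 being narrow. The log2 fold was 0.71 ± 0.21 (SE; limma, adjusted p = 0.0180). E2f2, another activator, ran from 7.60 to 7.97 in Rb/p53 tumours and from 7.35 to 7.84 in normal tissue, and its log2 fold of 0.25 had a 95% interval from 0.03 to 0.47 (adjusted p = 0.0873). E2f3, also an activator, ran from 9.16 to 9.68 in Rb/p53 tumours and from 8.28 to 9.81 in normal tissue, where normal replicate 5 held the highest value of all 17 arrays. Its fold of 0.45 did not pass (limma, adjusted p = 0.172). E2f3 was the 1 member with 2 probe sets, and the other one gave a log2 fold of 0.32 ± 0.18 (SE) against normal tissue.

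E2f4, the most abundant E2F in many resting cells by textbook accounts, ran from 9.98 to 11.15 with a median of 10.72 in Rb/p53 tumours. The normal samples stood at 9.81, 10.12, 9.84, 9.95 and 10.23, so that only the lowest Rb/p53 tumour, MMTV-Cre replicate 3, lay within their range. E2f4 rose by a log2 fold of 0.67 ± 0.21 (SE; limma, adjusted p = 0.0220). E2f5, its close relative, ran from 9.66 to 10.91 with a median of 10.24, and stood at 9.02, 9.42, 9.23, 9.82 and 9.73 in normal tissue. It rose with a log2 fold of 0.78 ± 0.22 (adjusted p = 0.0137), and only Rb/p53 MMTV-Cre replicate 7 lay within the normal range.

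E2f7 was even among the Rb/p53 tumours, from 9.31 to 9.77 with a median of 9.61, and uneven in normal tissue at 8.39, 8.67, 8.43, 9.03 and 9.55. It rose with a log2 fold of 0.76 ± 0.23 (SE; limma, adjusted p = 0.0184), with normal replicate 5 inside the tumour range. E2f8, the second atypical member, had the largest fold of the E2F genes and the widest spread. It ran from 8.59 to 10.65 with a median of 9.32 in Rb/p53 tumours, and stood at 6.61, 8.46, 8.17, 8.48 and 9.70 in normal tissue. Its fold of 1.20 ± 0.48 (SE) did not pass (limma, adjusted p = 0.0749, 95% interval 0.18 to 2.22).

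**Figure D2:**
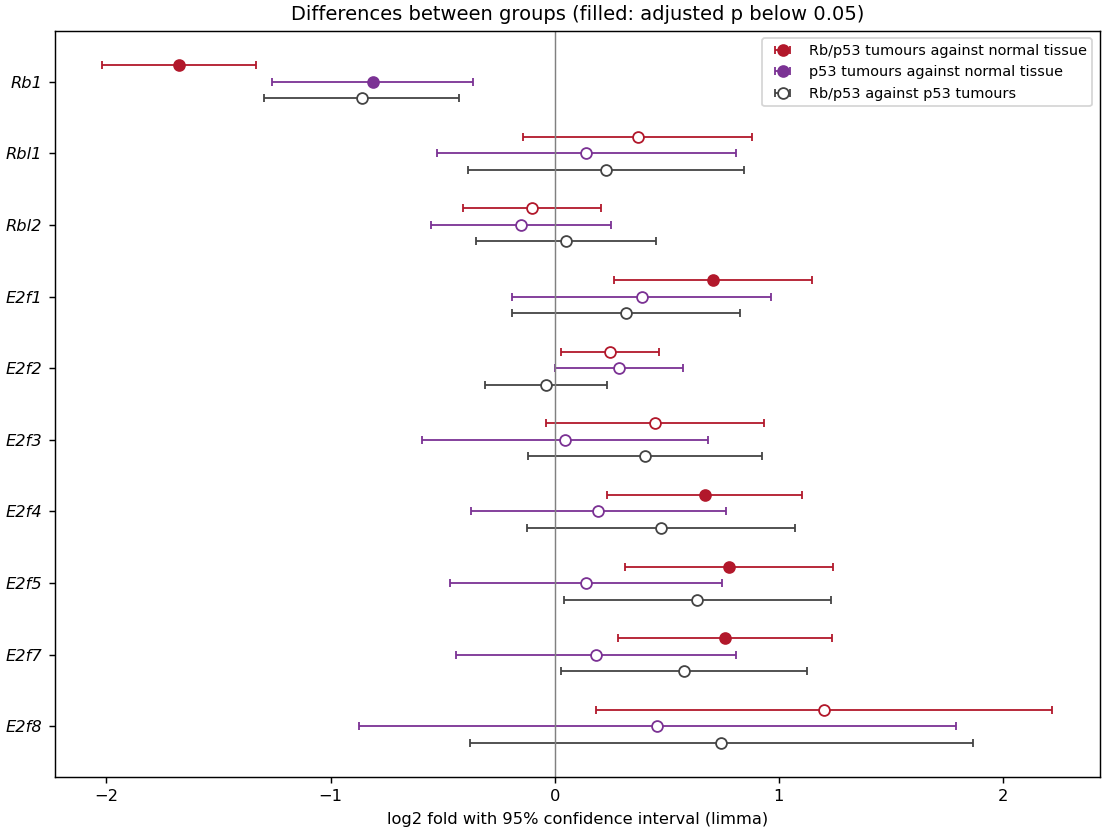
Log2 fold (horizontal axis) of each member in 3 comparisons, with its 95% confidence interval from limma and filled points where the adjusted p is below 0.05. Filled points are Rb1, E2f1, E2f4, E2f5 and E2f7 for Rb/p53 tumours against normal tissue and Rb1 for p53 tumours against normal tissue, and the comparison between the tumour genotypes has none.

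These calls changed with the normal samples compared. Normal replicate 1 held the lowest of the normal values for 8 of the 10 members, all but Rb1 and Rbl2, for which it held the highest. Normal replicate 5 held the highest for 7 members and the lowest for Rbl2. Without normal replicate 1, Rb1 alone passed, and the adjusted p of the others was 0.0692 for E2f1, 0.0601 for E2f4, 0.0503 for E2f5 and 0.0644 for E2f7, with folds from 0.52 to 0.67. Without normal replicate 3, 3 members passed, as E2f4 (adjusted p = 0.0558) and E2f7 (0.0593) did not. Without normal replicate 5, 8 members passed, with E2f2 (limma, adjusted p = 0.0333), E2f3 (0.0469) and E2f8 (0.0257) added. With the 2 Rb/p53 tumours that are not labelled as transplants alone, Rb1 was the 1 member to pass.

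**Figure D3:**
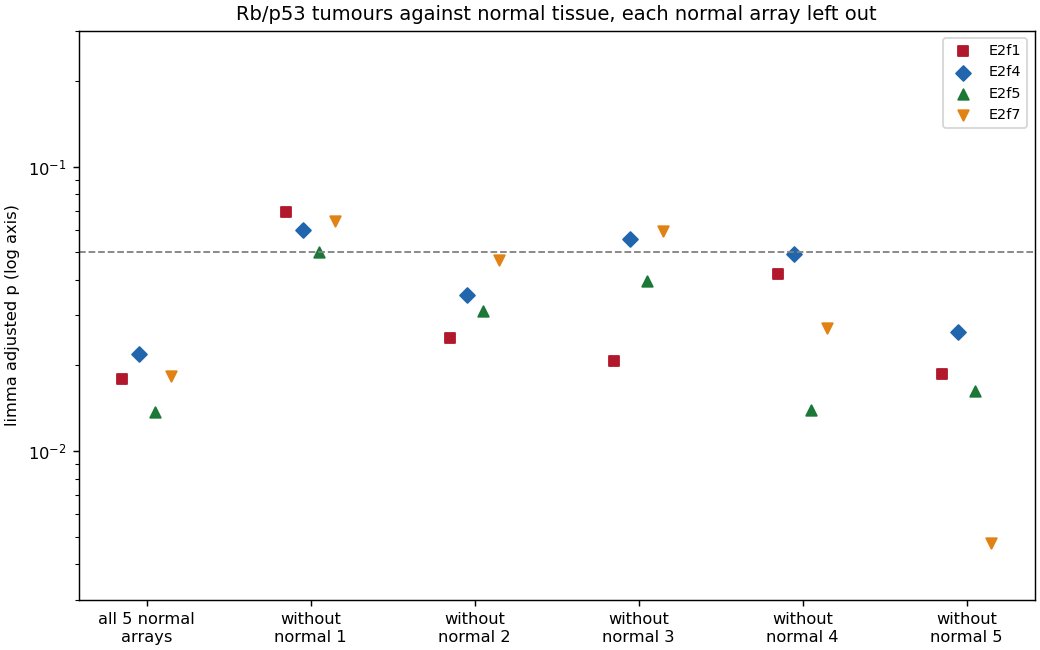
Adjusted p (limma, vertical log axis) of E2f1, E2f4, E2f5 and E2f7 in Rb/p53 tumours against normal tissue, with all 5 normal arrays and without each in turn (horizontal axis), and a dashed line at 0.05. Leaving out normal replicate 1 puts all 4 genes above the line, E2f5 at 0.0503, and leaving out normal replicate 3 puts E2f4 and E2f7 above it.

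The same 2 arrays were the ends of the normal group in the level of E2F target genes. The mean log2 level of 31 measured genes of DNA replication and S phase known as E2F targets was 8.20 in normal replicate 1 and 10.12 in normal replicate 5, against 9.69, 9.47 and 9.50 in the others. It ran from 9.93 to 10.58 in Rb/p53 tumours, so normal replicate 5 lay inside the tumour range. Proliferation markers had a mean of 7.63 in normal replicate 1 and 10.28 in normal replicate 5, with 9.74, 9.43 and 9.20 between. Skeletal muscle markers were 10.57, 10.33, 8.12, 8.09 and 9.35 in normal replicates 1 to 5, so a high level there was shared by replicates 1 and 2. The part of cell makeup in the members' values was not tested. In spread, all 10 members had an SD over the normal samples above the median gene's 0.15, and the SD in normal tissue exceeded that in Rb/p53 tumours for 7 of 10 members and for 34.4% of all genes.

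**Figure D4:**
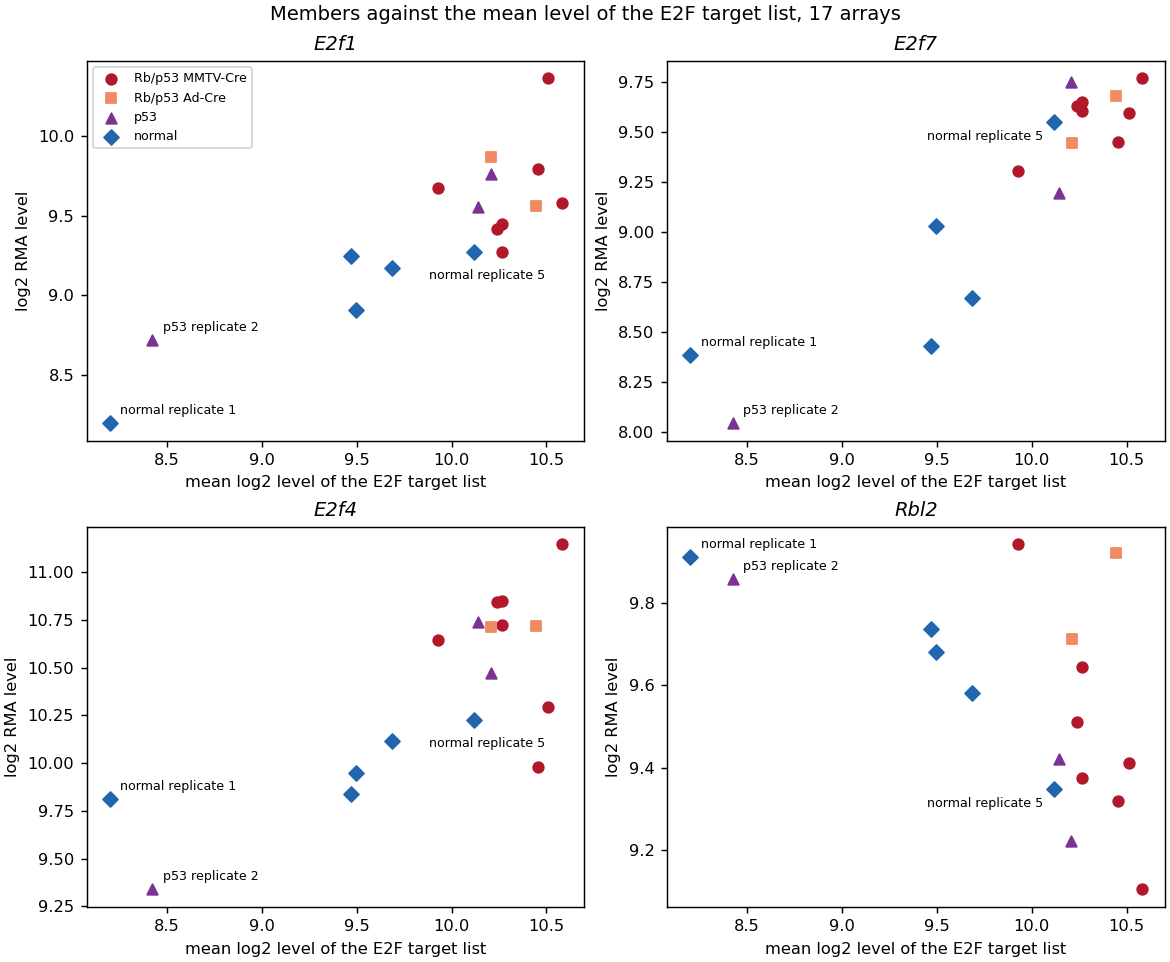
Log2 RMA level of E2f1, E2f7, E2f4 and Rbl2 (vertical axes) against the mean log2 level of 31 E2F target genes (horizontal axes) on 17 arrays, coloured by group. Normal replicate 1 at 8.20 and p53 replicate 2 at 8.42 on the horizontal axis are low in the 3 E2F genes and high in Rbl2, while normal replicate 5 at 10.12 lies near the tumours.

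In p53 tumours 1 of the 10 members, Rb1, differed from normal tissue (limma), against a background of 20.4% of all genes, with 12.1% lower and 8.34% higher. No further member had an unadjusted p below 0.05, which 35.4% of all genes had, and no member's groups were free of overlap, which 23.4% of all genes were. These tumours were set against the same normal samples as the Rb/p53 tumours. The 3 p53 tumours differed widely among themselves. E2f1 stood at 9.76, 8.72 and 9.55, E2f4 at 10.47, 9.34 and 10.74, and E2f5 at 9.78, 8.91 and 10.08. E2f7 stood at 9.75, 8.04 and 9.20, and E2f8 at 9.60, 7.27 and 9.35. Replicate 2 was the lowest p53 tumour for 8 of the 10 members and the highest for Rb1 and Rbl2, and it was the lowest of all 17 arrays in Rbl1, E2f3, E2f4, E2f5 and E2f7. Its E2F target mean was 8.42 against 10.21 and 10.14 in the other p53 tumours, and its macrophage marker mean 12.57 against 10.74 and 11.47, the part of which was not tested.

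The folds of p53 tumours against normal tissue were 0.39 ± 0.27 (SE) for E2f1, 0.20 ± 0.27 for E2f4, 0.14 ± 0.29 for E2f5, 0.18 ± 0.30 for E2f7 and 0.46 ± 0.63 for E2f8. Without p53 replicate 2 they were 0.70 for E2f1 (limma, adjusted p = 0.0911), 0.62 for E2f4 (0.0674), 0.48 for E2f5 (0.279), 0.66 for E2f7 (0.0686) and 1.19 for E2f8 (0.223). E2f2 then passed with a log2 fold of 0.42 (adjusted p = 0.0436), against 0.29 (adjusted p = 0.141) with all 3 tumours.

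Between the tumour genotypes none of the members differed past the threshold. The comparison sets tumours labelled as deleted for Rb and p53 against tumours labelled as deleted for p53 alone. No p53 tumour is labelled as a transplant, whereas most Rb/p53 tumours are, so genotype and transplantation cannot be fully told apart. In limma 0 of 10 members passed, against a background of 0.00502%, which is 1 gene. At an unadjusted p below 0.05 there were 3, Rb1, E2f5 and E2f7, where 20.6% of all genes reached it. Rb1 was the 1 member whose groups did not overlap, as were 3.14% of all genes. E2f5 was higher in Rb/p53 tumours by a log2 fold of 0.64 (95% interval 0.04 to 1.23; adjusted p = 0.224) and E2f7 by 0.58 (0.03 to 1.12; adjusted p = 0.230). The intervals were -0.19 to 0.83 for E2f1, -0.13 to 1.07 for E2f4 and -0.38 to 1.87 for E2f8, so differences of the size measured against normal tissue lay within them.

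Most of these folds shrank without p53 replicate 2. The log2 fold of Rb/p53 against p53 tumours was then 0.01 for E2f1, 0.05 for E2f4, 0.10 for E2f7 and 0.01 for E2f8, where it had been 0.32, 0.47, 0.58 and 0.74. E2f5 kept a fold of 0.30 of 0.64. The folds of Rbl1 and E2f3 changed sign, from 0.23 to -0.25 and from 0.40 to -0.06, and none of these passed in limma with or without the array.

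None of the members differed past the threshold by the route of Cre delivery. Ad-Cre against MMTV-Cre Rb/p53 tumours gave 0 of 10 members past the threshold in limma and 0 at an unadjusted p below 0.05, against backgrounds of 0.00502% and 2.07%. The folds lay between -0.27 for E2f8 and 0.35 for Rbl2, whose 95% interval was -0.11 to 0.80. E2f3 stood at 9.68 and 9.66 in the Ad-Cre tumours, just above the highest MMTV-Cre value of 9.60, and 5.03% of all genes had groups that did not overlap. Both Ad-Cre tumours and 5 of the 7 MMTV-Cre tumours are transplants, and 2 arrays bound these differences only loosely.

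Within the 9 Rb/p53 tumours the members differed in how much they varied. E2f2 and E2f7 had the smallest SDs of log2 level, 0.13 and 0.14, and E2f8 the largest at 0.72, where the median gene had 0.19. E2f8 stood at 10.65 in MMTV-Cre replicate 4, 10.22 in replicate 2 and 10.12 in replicate 6, but at 8.59 in replicate 1 and 8.85 in replicate 7. The genes most like E2f8 over these tumours, among 15813 genes scanned, were Itgb4, which encodes integrin beta 4 of the epithelial hemidesmosome, with r = 0.981, Fam160a1 with 0.964 and Chd2, a chromatin remodeller, with 0.959. Over the 7 MMTV-Cre tumours alone these were 0.987, 0.976 and 0.963. Those most like E2f1 were Fgf1, a growth factor, with r = 0.965, Dcaf7 with 0.956 and Cep164, a centriole protein, with 0.949. These are the highest values of a scan over 9 tumours and are given as a description. Itgb4 ran from 7.99 in MMTV-Cre replicate 1 to 10.33 in replicate 4, the same ends as E2f8. Epcam, an epithelial surface marker, did not have the same ends, being 8.01 in replicate 4 and 9.65 in replicate 1. It was 11.06 in replicate 3, where E2f8 was 9.05. Epcam was 10.34 and 10.49 in replicates 2 and 6, where E2f8 was high, and 7.06 in replicate 7, where E2f8 was low. In MMTV-Cre replicate 5 Epcam was 7.13 and E2f8 9.32. In Ad-Cre replicates 1 and 2 Epcam was 9.75 and 11.00, and E2f8 was 8.85 and 9.71. The relation of Epcam with E2f8 over the 9 tumours was not tested. The part of epithelial content in the level of E2f8 was not tested.

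Among the 45 pairs of members within the 9 Rb/p53 tumours, none was related after adjustment. The 1 pair with an unadjusted exact permutation p below 0.05 by Pearson r was E2f1 and E2f8, with Pearson r = 0.665 (two-sided p = 0.041, adjusted p = 0.911) and Spearman rho = 0.633 (exact permutation p = 0.0760). Without the 2 tumours farthest from the median of E2f1 its r was 0.103, and within the 7 MMTV-Cre tumours it was 0.667. Leaving out those 2 tumours narrows the range of E2f1, so the lower r does not show that the relation rested on them. By Spearman rho 2 further pairs had an unadjusted p below 0.05, E2f1 with E2f4 (rho = -0.750, exact permutation p = 0.0255; r = -0.594, exact permutation p = 0.101) and E2f4 with E2f7 (rho = 0.700, exact permutation p = 0.0433; r = 0.510, exact permutation p = 0.158), and for both the p of rho adjusted over the 45 pairs was 0.855. Against the mean of the 31 E2F target genes, 0 of 10 members were related after adjustment. E2f7 had r = 0.701 (exact permutation p = 0.0323, adjusted p = 0.180) and rho = 0.583 (exact permutation p = 0.108). Its r fell to 0.044 without the 2 farthest tumours and was 0.667 within MMTV-Cre tumours. E2f3 had r = 0.672 (exact permutation p = 0.0482, adjusted p = 0.180; rho = 0.400, exact permutation p = 0.291), which likewise fell to -0.02 without the 2 farthest and was 0.864 within MMTV-Cre tumours. Rbl2 had a negative value that did not pass, with r = -0.653 (exact permutation p = 0.0541, adjusted p = 0.180) and rho = -0.700 (exact permutation p = 0.0433, adjusted p = 0.433), and its r was -0.823 without the 2 farthest and -0.913 within MMTV-Cre tumours.

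Of the partners of the E2F and pocket proteins, 6 of 10 rose and 1 fell in Rb/p53 tumours against normal tissue (limma), with a median log2 fold of 0.55 against 0.03 for all genes, of which 14.2% rose and 13.4% fell. With the 2 tumours not labelled as transplants alone, 0 partners passed. Tfdp1, which encodes the DP1 subunit that E2F1 to E2F6 need to bind DNA, ran from 10.82 to 11.66 in Rb/p53 tumours and from 9.62 to 10.58 in normal tissue, and rose by 0.98 ± 0.21 (SE; adjusted p = 0.00241). Tfdp2, which encodes its relative DP2, had a fold of 0.05 ± 0.21 (adjusted p = 0.900). Foxm1, a mitotic activator that joins the MuvB proteins, rose by 1.32 ± 0.32 (adjusted p = 0.00521), and Lin52, a MuvB subunit, fell by 0.37 (adjusted p = 0.00827). E2f6, an E2F repressor that does not bind pocket proteins, had a fold of 0.07 ± 0.21 (adjusted p = 0.872). In p53 tumours 1 partner rose, Lin54 with 0.56 ± 0.18, and 2 fell, Lin52 with -0.52 ± 0.13 and Lin37 with -0.38 ± 0.10, all 3 MuvB subunits, where 8.34% of all genes rose and 12.1% fell. None of these 3 passed without p53 replicate 1, Lin54 did not pass without normal replicate 1 or 3 either, and 4 partners rose without p53 replicate 2.

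Upstream of the pocket proteins, 5 of 12 genes rose and 1 fell in Rb/p53 tumours, with a median fold of 0.35, beside the 14.2% and 13.4% of all genes. With the 2 tumours not labelled as transplants, 2 rose and 0 fell. Cdkn2a, whose products inhibit cyclin D kinases and stabilise p53, rose by 2.75 ± 0.41 (SE; limma, adjusted p = 7.74e-05), and Cdkn2b, a related kinase inhibitor, by 1.63 ± 0.28 (adjusted p = 3.92e-04). Ccnd2, a D-type cyclin, fell with -1.17 ± 0.36 (adjusted p = 0.0213). Ccnd1, the D-type cyclin best known in breast cancer, had a fold of 0.40 ± 0.42 (adjusted p = 0.554), and Ccne1, cyclin E1, which stands in the target list, rose by 1.06 ± 0.26 (adjusted p = 0.00497). In p53 tumours 3 of the 12 rose and 1 fell, beside 8.34% and 12.1% of all genes, with Cdkn2a at 2.15 ± 0.53 (adjusted p = 0.00846), the kinase gene Cdk6 at 1.22 ± 0.27 and the inhibitor Cdkn2c at -1.74 ± 0.35. Of 10 measured co-repressors that Rb recruits, 2 rose in Rb/p53 tumours, Rbbp7 (0.57 ± 0.20; adjusted p = 0.0402) and Kdm5a (0.36 ± 0.09; adjusted p = 0.0065), and Smarca2, a chromatin remodeller, fell with -0.69 ± 0.17 (adjusted p = 0.00487). These 3 of 10 are near the 27.6% of all genes that passed in either direction. In p53 tumours Kdm5a rose with 0.39 and Smarca2 fell with -1.62 ± 0.22 (adjusted p = 4.80e-05). Rbbp7 did not pass without MMTV-Cre replicate 1, 2, 3, 4, 6 or 7, Ad-Cre replicate 1 or normal replicate 1, 3, 4 or 5 (limma, adjusted p from 0.0510 to 0.125). The rise of Kdm5a in p53 tumours did not pass without p53 replicate 1 or 2 or normal replicate 3 or 5 (adjusted p from 0.0556 to 0.148). Without p53 replicate 2, 6 co-repressors rose in Rb/p53 tumours and 2 in p53 tumours, and without p53 replicate 3, 3 upstream genes fell in p53 tumours.

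The E2F target genes rose in 21 of 31 cases in Rb/p53 tumours against normal tissue and fell in 0 (limma), with a median log2 fold of 0.96. Of all genes 14.2% rose and 13.4% fell, with a median of 0.03. Those with the largest folds were Ccna2, cyclin A2 (1.62 ± 0.46, SE; adjusted p = 0.0135), and Rfc3, a subunit of the clamp loader in DNA replication (1.60 ± 0.34; adjusted p = 0.00219). Without normal replicate 1, 9 of the 31 passed, without normal replicate 4, 12 passed, and with the 2 tumours not labelled as transplants, 0 passed. In p53 tumours 0 of 31 passed and 0 had an unadjusted p below 0.05, with a median fold of 0.22 against 0.09 for all genes, where 35.4% had such a p. Without p53 replicate 2 the median was 0.81, 4 rose and 16 had an unadjusted p below 0.05, whereas the median was -0.06 without p53 replicate 1, 0.04 without p53 replicate 3 and -0.04 without normal replicate 1. Mki67, a marker of cycling cells, had folds of 0.78 ± 0.35 (limma, adjusted p = 0.109) in Rb/p53 and 0.69 ± 0.46 (adjusted p = 0.286) in p53 tumours. The first passed without normal replicate 5 (log2 fold 1.11, adjusted p = 0.0186). Of 9 measured proliferation markers, 7 rose and 0 fell in Rb/p53 tumours, with a median log2 fold of 1.38. In p53 tumours 0 of the 9 passed, with a median of 0.87. That median was 0.43 without normal replicate 1, and 6 rose without p53 replicate 2.

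Between the tumour genotypes none of the partners, co-repressors, upstream genes or targets passed in limma, and 4 of 10, 2 of 10, 5 of 12 and 16 of 31 of them had an unadjusted p below 0.05, as did 20.6% of all genes. The median fold of the 31 targets was 0.69 and that of all genes -0.03. Without p53 replicate 2 these counts were 3, 3, 3 and 3, with 8.36% of all genes, and the median of the targets was 0.13. With the 2 tumours not labelled as transplants they were 0, 1, 1 and 0, with 3.09% of all genes. Without p53 replicate 3, 2 partners, 2 co-repressors, 1 upstream gene and 5 targets were called higher in Rb/p53 tumours, among 1358 genes called over all, 4.25% of all genes being higher. E2f6 was among these partners, with a log2 fold of 1.14 (adjusted p = 0.0322) against 0.73 ± 0.28 (SE; adjusted p = 0.200) with all 3 p53 tumours, and Ccne1 among the targets, with 0.97 (adjusted p = 0.0440) against 0.61 ± 0.26 (adjusted p = 0.219). With all p53 tumours the folds were 0.78 ± 0.26 for Tfdp1 (adjusted p = 0.174), 0.61 ± 0.56 for Cdkn2a (0.501), 0.29 ± 0.29 for Tfdp2 (0.536), 0.24 ± 0.50 for Ccnd1 (0.783) and 0.09 ± 0.24 for Mki67 (0.823). Without p53 replicate 2 they were 0.32 for Tfdp1 (limma, adjusted p = 0.676), 0.26 for E2f6 (0.803) and 0.24 for Ccne1 (0.841). Those of Cdkn2a, Ccnd1 and Mki67 changed sign, to -0.10, -0.58 and -0.29, none of them past the threshold. The 9 proliferation markers had a median fold of 0.60 with all p53 tumours and -0.17 without p53 replicate 2, and 0 passed either way.

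Cell type markers moved with the comparisons against normal tissue. All 9 measured adipocyte markers, 8 of 10 luminal and 7 of 8 basal markers were lower in Rb/p53 tumours, and 9, 8 and 6 in p53 tumours, where 6 of 7 macrophage markers were higher. Muscle markers were lower in 5 of 6 cases in Rb/p53 tumours and in 3 of 6 in p53 tumours. In Rb/p53 tumours 4 of 6 T cell, 3 of 5 B cell, 2 of 8 fibroblast and 2 of 7 endothelial markers were lower too, and of 7 macrophage markers 2 were higher and 1 lower. In p53 tumours 4 of 7 endothelial and 1 of 5 B cell markers were lower, 1 of 6 T cell markers was higher, and 0 of 8 fibroblast markers passed (0 at an unadjusted p below 0.05). Of all genes 13.4% were lower and 14.2% higher in Rb/p53 tumours, and 12.1% and 8.34% in p53 tumours. Mean levels of fibroblast markers overlapped, from 10.43 to 11.72 in Rb/p53 tumours against 11.42 to 11.68 in normal tissue. The part of these cell types in the members' folds was not tested. Between the tumour genotypes 0 of these markers passed in limma, with 5 of 7 macrophage markers and 5 of 6 T cell markers at an unadjusted p below 0.05, which 20.6% of all genes reached. Both lists were lower in Rb/p53 tumours, with median log2 folds of -1.22 for macrophage and -0.73 for T cell markers. Of the p53 tumours, replicate 2 held the highest mean in both, 12.57 and 8.11.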

How the data were processed

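Total RNA of 17 samples was hybridised to Affymetrix Mouse Gene 1.0 ST arrays. Values of 35556 probe sets were deposited on the log2 scale, made by RMA in Partek 5.6 per the submitters' processing notes, with further settings and build not given in the sources used here. The number of arrays limits the precision.

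Genes were symbols that a probe set carried alone (21789 with 1 symbol, 1621 with several, 12146 with none), taking the probe set with the highest mean, which left 19938 genes. In R 4.3.3, limma 3.58.1 (lmFit, eBayes, two-sided) compared Rb/p53 with p53 tumours on 12 tumour arrays, each genotype with normal tissue on 17 arrays as 3 groups, and Ad-Cre with MMTV-Cre tumours on the 12 tumour arrays as 3 groups. P was adjusted by Benjamini-Hochberg over all genes, with a threshold of 0.05. The fits were tested on simulated data. Relations within Rb/p53 tumours used exact permutation of all pairings (Python 3.11.15, scipy 1.17.1).

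The members, lists and tests were chosen with earlier results of these data known. Named genes are the members, up to 2 largest rises and falls of each pathway list, a fixed set (E2f6, Tfdp1, Tfdp2, Ccnd1, Cdkn2a, Ccne1, Mki67), and the 3 genes most like E2f1 and the most variable member in Pearson r. Epcam was chosen after its values were seen. Alternatives were an intensity trend, array weights, a filter on low genes, other normalisations and probe set rules, a fold of at least 1, other sets of arrays and each array left out.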

Additional observations from a re-analysis of the deposited data

How the results depend on the processing

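Of 1040 member values under alternative settings, 51 changed sign, 0 of them called, and none in Rb/p53 tumours against normal tissue. In that comparison 5 members passed. With a log2 fold of at least 1 as well, 1 did (Rb1), with array weights 8, with tumours not labelled as transplants alone 1, and with normal replicates 1 and 5 both omitted, a setting chosen after seeing the data, 2 (Rb1 and E2f7). Leaving out each array gave 1 to 8. Over all genes 5503 passed, 2005 with tumours not labelled as transplants and 3426 without normal replicates 1 and 5.

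In p53 tumours against normal tissue 1 member passed, and 0 did with a fold of at least 1, with p53 replicate 3 counted as Rb/p53 or with only the compared arrays in the fit; leaving out each array gave 0 to 2. Between the genotypes 0 passed, 1 (Rb1) with all 17 arrays in the fit, and 0 to 1 with each array left out. Over all genes this comparison called 1, but 2044 with p53 replicate 3 counted as Rb/p53, 12 with replicate 2 omitted as well, 356 with all 17 arrays, 5 over all probe sets, and 19, 2 and 1358 without p53 replicates 1, 2 and 3. Ad-Cre against MMTV-Cre tumours gave 0 members in each setting run, and over all genes 1, with 30 and 8 without Ad-Cre replicates 1 and 2, each leaving 1 sample taken to vary like the other groups. Relations of members with the E2F targets numbered 0, and 0 to 1 with each array left out, where Rbl2 passed without Ad-Cre replicate 1. The cause of these shifts was not tested.
No paired analysis was possible because the replicate numbers were given in accession order and pair no samples.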
